A study of Rattus norvegicus with 2 samples.

Results

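The miRNAs that are encoded inside the Hox gene clusters were examined in exosomes released by neonatal rat cardiomyocytes. All rows of the deposited count table named miR-10a, miR-10b, miR-196a, miR-196b or miR-615, on either arm, were taken, by name and not by value. This gave 5 of the 635 rows, and they were mmu-miR-10a-5p, mmu-miR-10b-5p, mmu-miR-196a-5p, mmu-miR-196b-5p and mmu-miR-615-3p, written below without the mouse prefix that the table gives every name. The cells were primary cultures from hearts of Wistar rats 1 to 2 days old, in which a step of differential adhesion favoured cardiomyocytes. The medium in which the cells for both conditions were plated held bromodeoxyuridine, which acts on dividing cells. After serum starvation, cells were kept for 48 h without angiotensin II (Ang II), and the exosomes of these cells are called NC-Exo. Those of cells made hypertrophic by 48 h in 1 μmol/L Ang II are called HC-Exo. Small RNA of the exosomes was sequenced in 1 library per condition, so no difference below has a replicate check. RNA of the cells themselves was not part of these libraries, and how many other heart cells remained was not tested.

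Hox genes code for transcription factors that give cells their place along the head-to-tail axis, and their order in each cluster follows the order of the body regions in which they are active. The miR-10 genes lie beside Hox4 genes, and the miR-196 genes lie further back, beside genes of more posterior regions. miR-196 is best known for directing the cleavage of Hoxb8 mRNA, and the miR-10 family is also known to act on Hox transcripts. miR-10 shares an ancient origin with miR-99 and miR-100, which lie outside the Hox clusters.

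By RefSeq's annotation of the rat assembly GRCr8, Mir10a lies between Hoxb5 and Hoxb4. Mir10b lies within the annotated span of Hoxd4. Mir196a lies between Hoxc10 and Hoxc9, and Mir196b between Hoxa9 and Hoxa10. Mir615 lies within the spans of Hoxc5 and Hoxc6. Mir196b is on the minus strand and the other 4 are on the plus strand. The list gives whole gene spans, so exon or intron was not assigned, and coordinates are not given because the submitters' processing notes name the mouse builds mm9 and GRCm38.

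The mature sequences that separate these rows are given 5′ to 3′ from RefSeq (GRCr8), because miR-10a and miR-10b, and likewise the miR-196 forms, are told apart by a single base over the stretch they share. Of the 5 rows, 4 had a rat entry of the same name. The capitals mark the seed, bases 2 to 8, which pairs with target transcripts.
miR-10a-5p: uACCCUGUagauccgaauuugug
miR-10b-5p: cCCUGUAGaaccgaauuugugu
miR-10b hairpin, the stretch under miR-10a-5p: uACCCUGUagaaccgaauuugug
miR-196a-5p: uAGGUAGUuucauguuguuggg
miR-196b-5p: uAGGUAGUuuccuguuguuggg
miR-196c-5p: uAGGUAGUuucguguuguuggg
miR-100-5p: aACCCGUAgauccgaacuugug
miR-99b-5p: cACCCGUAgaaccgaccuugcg

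Laid on the miR-10b hairpin without gaps, miR-10a-5p differed from it by 1 substitution over 23 bases, U12A, counted from the 5′ end of miR-10a-5p. The RefSeq entry of miR-10b-5p starts 2 bases further in than that of miR-10a-5p, so the listed seeds of the pair are not the same letters, whereas the hairpin itself holds the miR-10a seed. Which of these 5′ ends the counted reads had was not tested. miR-196a-5p and miR-196b-5p share their seed and differ by A12C. A further rat gene, Mir196c, lies between Hoxb13 and Hoxb9, and its mature form differs from miR-196a-5p by A12G. The count table has no row named miR-196c, and under which name its reads would have been counted was not tested. The seed letters AGGUAGU of miR-196 were found, on the RNA strand only, in 11 of the 693 rat mature entries, or 1.59%, among them 7 of the 8 let-7 5p entries, where they start at base 3 and not at base 2. The miR-10a seed letters ACCCUGU were found in 1 entry, miR-10a-5p itself.

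The row counts of NC-Exo summed to 102608 miRNA reads and those of HC-Exo to 133155. Among the 135 rows with at least 100 reads over both libraries, 4 pairs had the same counts in both, such as miR-486a-5p and miR-486b-5p with 654 and 875 each. Whether the same reads were counted under 2 names was not tested, and the second rows of these pairs make up 1.30% and 1.25% of the sums. These shares leave out the rows with fewer reads, among them every Hox-embedded row. Equal counts occurred there too, such as 12 and 9 for each of miR-101a-3p, miR-101b-3p and miR-101c. Levels are given as reads per 1000000 of these miRNA reads (RPM), with 9.75 RPM for 1 read of NC-Exo and 7.51 RPM for 1 read of HC-Exo. All mature forms printed above are 22 or 23 bases long, and no length correction was made. How evenly the library preparation took up miRNAs of different sequence was not tested, so comparisons between miRNAs are comparisons of reads. Each interval is a 95% Clopper-Pearson (exact) one that covers no more than counting error, since PCR copies are not independent molecules. For a count of 0 a limit of 3 reads was set, which is lower than the exact upper limit given beside it. As the RNA of many vesicles was pooled, fewer vesicles of one cell type and less of a miRNA per vesicle cannot be told apart. The exosomes were isolated from the medium with a commercial reagent, and whether RNA from outside vesicles was sequenced with them was not tested.

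The Hox-embedded miRNAs were scarce in both libraries. Together the 5 rows held 22 reads of NC-Exo and 25 of HC-Exo, which is 0.0214% and 0.0188% of the miRNA reads. The summed level was 214 RPM in NC-Exo (interval 134 to 325) and 188 RPM in HC-Exo (122 to 277), and these intervals overlap. Which library was higher rests on the 3 reads of miR-615-3p, since without that row the sums were 185 and 188 RPM. Most of these reads belonged to miR-10, with 18 of the 22 reads in NC-Exo, or 81.8% (59.7 to 94.8%), and 19 of the 25 in HC-Exo, or 76.0% (54.9 to 90.6%).

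miR-10a-5p, whose gene lies in the Hoxb cluster, was counted 7 times in NC-Exo and 10 times in HC-Exo. Its level was 68.2 RPM (27.4 to 141) in NC-Exo and 75.1 RPM (36.0 to 138) in HC-Exo. By level the libraries were close, and each value lies inside the interval of the other. The level depends on the total it is set against, and with the 10 most abundant miRNAs left out of the totals it was 160 and 164 RPM.

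miR-10b-5p, whose gene lies in the Hoxd cluster, was counted 11 times in NC-Exo and 9 times in HC-Exo. Its level was 107 RPM (53.5 to 192) in NC-Exo and 67.6 RPM (30.9 to 128) in HC-Exo. NC-Exo was the higher library here, with intervals that overlap, and the levels were 251 and 148 RPM with the 10 most abundant miRNAs left out of the totals. Within NC-Exo miR-10b-5p stood above miR-10a-5p by 11 reads to 7, and within HC-Exo below it by 9 to 10, and in neither library were their intervals apart.

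The miR-196 and miR-615 rows were at the edge of detection. A level of 3 reads, taken as the floor, is 29.2 RPM in NC-Exo and 22.5 RPM in HC-Exo. miR-196a-5p had a single read in NC-Exo against 4 in HC-Exo, or 9.75 RPM (0.247 to 54.3) and 30.0 RPM (8.19 to 76.9). It was the only row of the miR-196 and miR-615 names above the floor, and only in HC-Exo. From which miR-196 gene these reads came was not tested. miR-196b-5p had 2 reads in HC-Exo and was at 0 in NC-Exo, where the limit set is 29.2 RPM (3 reads) and the exact upper limit 36.0 RPM. miR-615-3p had 3 reads in NC-Exo against 0 in HC-Exo, where the limit set is 22.5 RPM (3 reads) and the exact upper limit 27.7 RPM. Both rows were at or under the floor in both libraries, so no ratio is given for them. In order of level, miR-10b-5p and miR-10a-5p came first in NC-Exo, then miR-615-3p, miR-196a-5p and miR-196b-5p. The order in HC-Exo was miR-10a-5p, miR-10b-5p, miR-196a-5p, miR-196b-5p and miR-615-3p, and no pair of neighbours in either order had intervals apart.

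**Figure D1:**
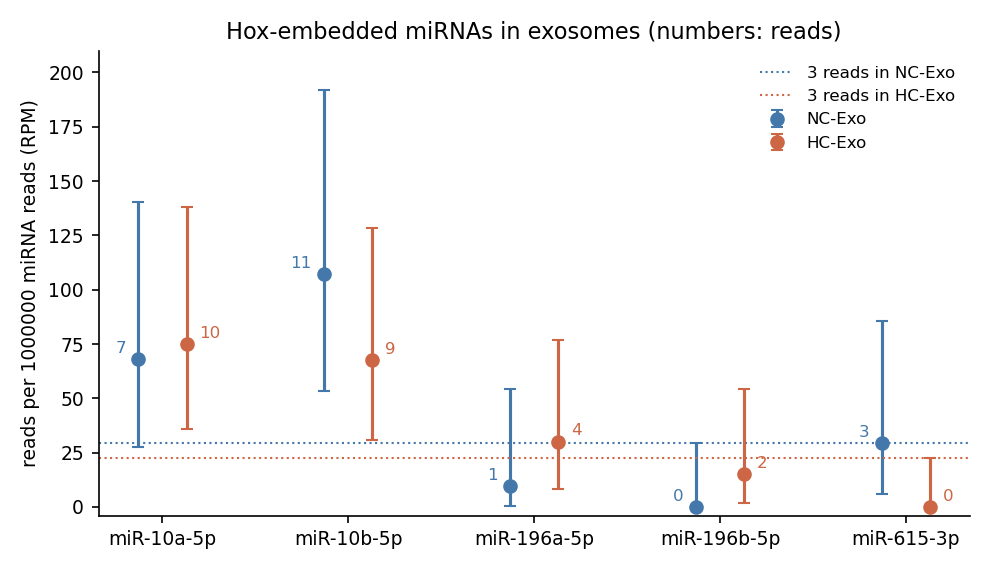
Levels of the 5 Hox-embedded miRNAs in RPM (vertical axis) in NC-Exo (blue) and HC-Exo (orange), with 1 library each. Points carry their read counts, and dotted lines mark 3 reads. Bars are 95% exact intervals of counting error, except at 0 reads, where they end at 3 reads, below the exact limit. The intervals of the 2 libraries overlap for every row, and the miR-10 rows, between 67.6 and 107 RPM, stand above the other 3.

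Set against the other miRNAs of the table, the miR-10 rows stood near the middle of the order. By the mean RPM of both libraries, miR-10b-5p ranked 273 and miR-10a-5p ranked 297 of 635, while miR-196a-5p ranked 402, miR-615-3p 428 and miR-196b-5p 502. The table as a whole is sparse, with 3 reads or fewer in 44.3% of its rows in NC-Exo and in 40.6% of them in HC-Exo.

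The cell type of the label was checked with marker miRNAs. All 6 cardiomyocyte markers had reads in both libraries, and their sum was 168817 RPM, or 16.9% of the reads, in NC-Exo and 183898 RPM, or 18.4%, in HC-Exo. Nearly all of this was miR-1a-3p, the muscle miRNA, with 16614 and 23271 reads. The cardiac miR-208a-3p, encoded in a myosin heavy chain gene, was counted 9 times in NC-Exo and 24 times in HC-Exo, and its count in NC-Exo, the lowest of the 6, lay between those of the miR-10 rows. Only miR-208b-3p was lower in HC-Exo, with 57 and 66 reads and a log2 ratio of HC-Exo to NC-Exo of -0.16, and miR-499-5p, with 10 and 35 reads, had the highest, 1.43. The cardiomyocyte sum was 787 times (NC-Exo) and 979 times (HC-Exo) the sum of the Hox-embedded rows.

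Markers of other cells were present as well, and most of them far above the Hox-embedded rows. Both endothelial markers had reads, with a sum of 91114 RPM in NC-Exo and 66817 RPM in HC-Exo, led by miR-126a-5p. Only this arm was lower in HC-Exo, with a log2 ratio of HC-Exo to NC-Exo of -0.49, and miR-126a-3p had 0.21. Both smooth muscle markers had reads, and their sum was 23039 and 26901 RPM, led by miR-143-3p. The 4 fibroblast and mesenchymal markers summed to 32600 and 31602 RPM, led by miR-21a-5p, where only miR-214-3p was lower in HC-Exo. Of the 7 blood markers, 6 had reads, with a sum of 7904 and 8554 RPM led by miR-486a-5p, and miR-144-3p had no row. Most of this sum was miR-486a-5p, with 654 and 875 reads. The counts were 83 and 110 for miR-150-5p, 43 and 94 for miR-223-3p, 17 and 35 for miR-451a, and 12 and 23 for miR-142a-5p. Only miR-142a-3p, with 2 reads in each library, had a lower level in HC-Exo (log2 ratio -0.38). miR-122-5p, the hepatocyte miRNA, had 14 reads in NC-Exo against 16 in HC-Exo, or 136 and 120 RPM. Its counts were above those of each Hox-embedded row in both libraries. The neural markers miR-9-5p and miR-124-3p had 2 reads together in each library, and miR-124-3p was at 0 in NC-Exo. From which cells the reads of the Hox-embedded miRNAs came was not tested.

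**Figure D2:**
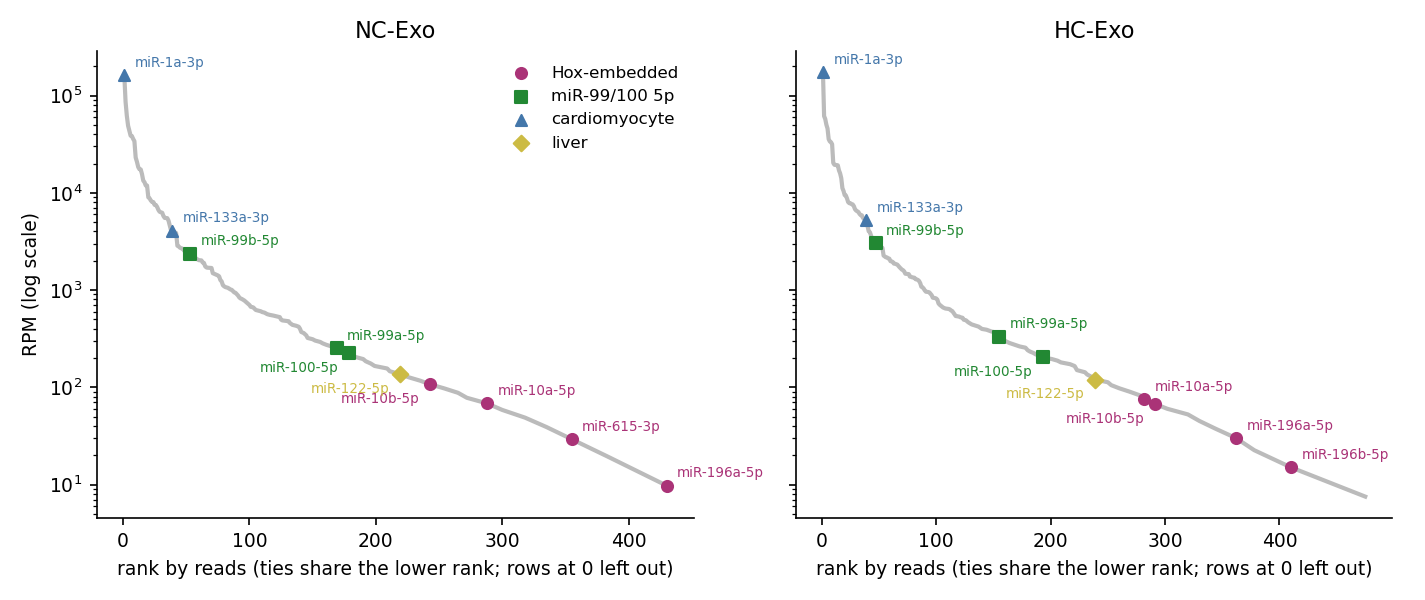
RPM (vertical log axis) against rank by reads (horizontal axis) for every miRNA with reads in NC-Exo (left) and HC-Exo (right), with the Hox-embedded rows (circles), the 5p rows of miR-99 and miR-100 (squares), 2 cardiomyocyte miRNAs (triangles) and miR-122-5p (diamond) marked. The miR-10 rows lie on the long shoulder of scarce miRNAs, below miR-122-5p in both libraries, and the miR-196 and miR-615 rows lie towards its end.

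The libraries were then set against each other read by read. A total of 340 miRNAs reached 10 reads in the sum of NC-Exo and HC-Exo, and for these the split of the reads was tested with a two-sided exact binomial test, adjusted over all 340 by the Benjamini-Hochberg method. It is a test between 2 libraries and not between the conditions. Of the 5 Hox-embedded rows, 2 had enough reads, miR-10a-5p with 17 and miR-10b-5p with 20. Neither was called, a call being an adjusted p under 0.05 together with a change of 2-fold or more (log2 of 1). Among all miRNAs tested, 4.71% were called, 22.4% had an adjusted p under 0.05 at any ratio, and 15.6% were past the 2-fold limit at any p. Among all the marker lists, 2 miRNAs were called, the cardiomyocyte miR-499-5p and the fibroblast and mesenchymal miR-199a-5p, with 19 and 59 reads and a log2 ratio of 1.26. These calls hold counting error only, and with a spread between libraries assumed (coefficient of variation 0.1, 0.2 or 0.4, edgeR's exact test) 0 of the 340 were called. A count of 0 of 2 says little beside these shares.

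For miR-10a-5p, HC-Exo stood to NC-Exo at a ratio of 1.10, which is 0.14 on the log2 scale (exact binomial interval -1.40 to 1.77, adjusted p = 1.0 by the exact binomial test). The sign of this value turned under 1 alternative, a pseudocount of 5 reads. For miR-10b-5p, the ratio was 0.630, or -0.67 on the log2 scale (-2.11 to 0.74, adjusted p = 0.572 by the exact binomial test). Over all 340 miRNAs tested the median log2 ratio was 0.10, so miR-10a-5p stood next to the median and miR-10b-5p below it. For miR-196a-5p, with 1 and 4 reads, the ratio was 3.08 with a counting interval of 0.305 to 152. It came to 1.03 with NC-Exo set at the floor of 3 reads, so its size rests on a count under the floor.

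These intervals show how little the depth could resolve. With 17 reads in all, miR-10a-5p would have needed at least 14 of them in HC-Exo, a ratio of 3.60, or at most 5, a ratio of 0.321, for an unadjusted p under 0.05. With 20 reads, miR-10b-5p would have needed at least 16 or at most 6, ratios of 3.08 and 0.330. Smaller differences of either row alone would not have passed at this depth.

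**Figure D3:**
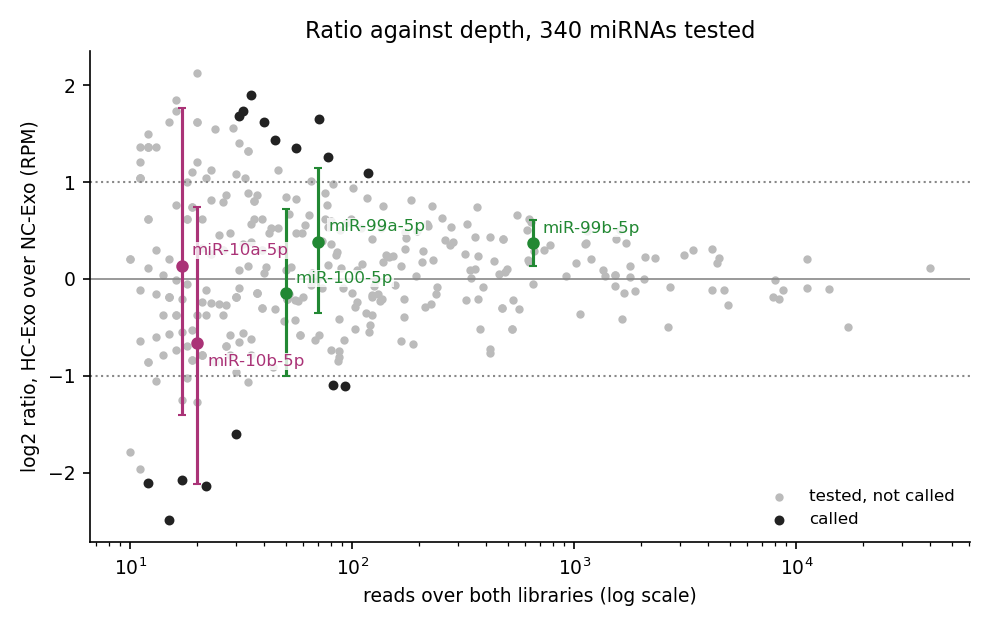
Log2 ratio, HC-Exo to NC-Exo (vertical axis) against reads over both libraries (horizontal log axis) for the 340 miRNAs tested, with called miRNAs in black. A library at 3 reads or fewer was set at 3 reads. Bars are 95% counting intervals of the miR-10 rows (purple) and the 5p rows of miR-99 and miR-100 (green). The miR-10 rows, at 17 and 20 reads, lie at the shallow end, and their intervals span 0.

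The miR-10 pair was also compared within itself, where the library totals cancel. miR-10b-5p took 61.1% of the miR-10 reads in NC-Exo (35.7 to 82.7%) and 47.4% in HC-Exo (24.4 to 71.1%). The log2 ratio of miR-10b-5p was lower than that of miR-10a-5p by a difference of -0.80 (-2.98 to 1.34), and did not pass the threshold (two-sided Fisher's exact test, p = 0.515, adjusted p = 0.802 over 7 pairs). The pair differs at the single base U12A over the stretch that both share, and how reads with an error at that base were assigned was not tested.

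The relatives of miR-10 outside the Hox clusters had far more reads. The 5p rows of miR-99a, miR-99b and miR-100 held 291 reads of NC-Exo and 477 of HC-Exo, against 18 and 19 for the miR-10 pair. This is 16.2 times (10.0 to 27.7) in NC-Exo and 25.1 times (15.9 to 42.1) in HC-Exo, and within each library the interval lies well above 1. Most of it was miR-99b-5p, with 242 reads in NC-Exo against 406 in HC-Exo, while miR-99a-5p had 26 and 44 and miR-100-5p 23 and 27. By edit distance miR-10a-5p was 3 changes from miR-100-5p and 6 from miR-99b-5p, and their seeds are other letters, ACCCUGU against ACCCGUA. The 3p arms miR-99b-3p and miR-99a-3p had 57 and 58 reads and 1 and 1 read, whereas no row was listed for a 3p arm of miR-10a or miR-10b.

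Of the 5 rows of these relatives, 4 were tested and none was called. Beside the 4.71% called among all miRNAs tested, that count says little. miR-99b-5p had a log2 ratio of 0.37 (0.14 to 0.61), with an adjusted p of 0.0109 by the exact binomial test, and was higher in HC-Exo but under the limit on size. The log2 ratio of miR-99a-5p was 0.38 (-0.35 to 1.14) and that of miR-100-5p -0.14 (-1.002 to 0.72), with adjusted p-values of 0.556 and 0.891 by the same exact test. miR-99b-3p had -0.35 (-0.90 to 0.20, adjusted p = 0.428 by the same test), the other direction from the 5p row of its hairpin. The summed miR-10 rows had a log2 ratio of -0.30 (-1.31 to 0.72), and the summed 5p rows of miR-99 and miR-100 had 0.34 (0.12 to 0.55). The difference between these sums was -0.63 (-1.67 to 0.41), an interval that includes 0. Among the 6 pairs of a miR-10 row with a relative, the largest difference in size was that of miR-10b-5p from miR-99a-5p, -1.05 (-2.69 to 0.57), with an adjusted p of 0.697 over 7 pairs by Fisher's exact test. Wide intervals of this kind do not show that miR-10 and its relatives moved alike.

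The rows next to the miR-10 pair in mean RPM give a view of ratios at the same depth. The 3 above and the 3 below miR-10a-5p were miR-500-3p, miR-133a-5p, miR-3470a, miR-30c-2-3p, miR-18a-5p and miR-467a-5p, and their log2 ratios ran from -3.08 for miR-30c-2-3p, with 13 and 2 reads (-2.49 with HC-Exo set at the floor, the value used for the call), to 1.00 for miR-133a-5p, with 5 and 13. Of these 6, only miR-30c-2-3p was called, and it was not called with any assumed spread. Around miR-10b-5p they were miR-148b-3p, let-7e-3p, miR-466m-3p, miR-669f-3p, let-7c-1-3p and miR-23a-5p, with log2 ratios from -1.27 for miR-148b-3p to 1.04 for let-7e-3p and none called. miR-669f-3p had the same counts as miR-10b-5p, 11 and 9. The values of both miR-10 rows lay within the range of their neighbours.

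**Figure D4:**
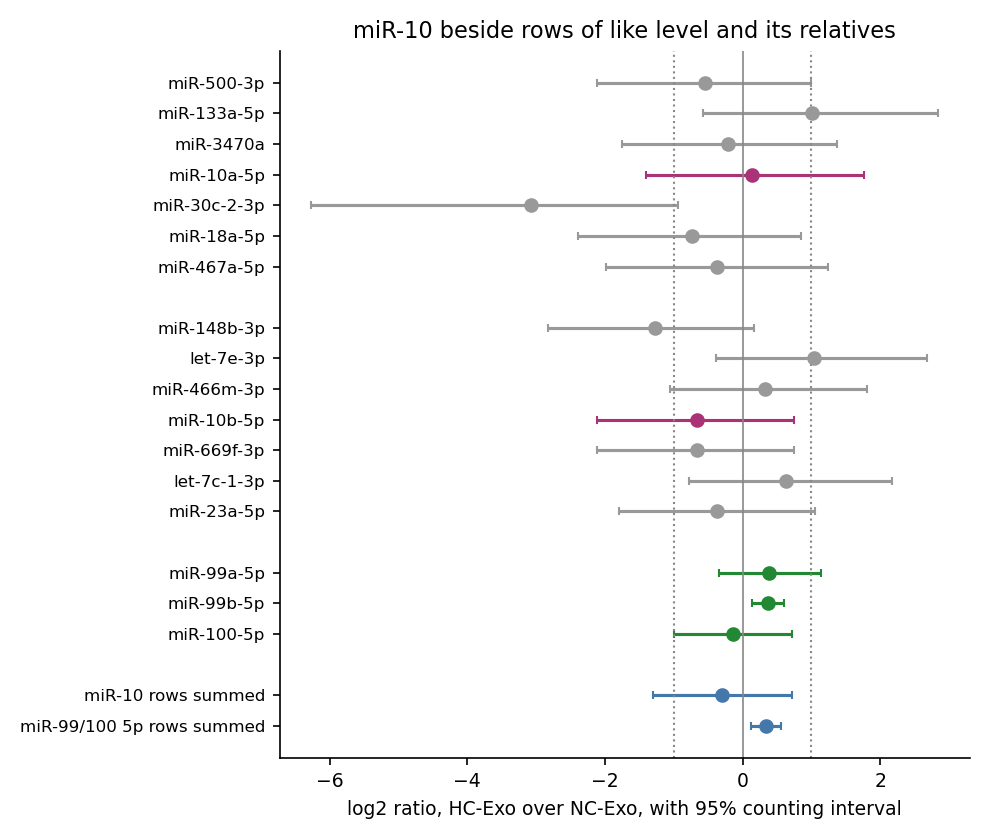
Log2 ratios of HC-Exo over NC-Exo (horizontal axis), from the reads as counted, with 95% counting intervals for the miR-10 rows (purple), the 3 rows next above and below each in mean RPM (grey), the 5p rows of miR-99 and miR-100 (green) and the sums (blue), with dotted lines at a log2 ratio of 1 in either direction. Of the 12 grey rows, only miR-30c-2-3p has an interval wholly below 0, and both miR-10 intervals include 0.

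Among the 135 miRNAs whose reads summed to at least 100, those nearest to miR-10a-5p in log2 ratio were miR-542-3p with 0.14, miR-191-5p with 0.13 and miR-183-5p with 0.15. Nearest to miR-10b-5p were miR-690 with -0.67, let-7b-3p with -0.64 and miR-3473e with -0.72. With 1 library per condition, likeness here is a single ratio over 2 libraries. Only 3 of the 135 had a lower log2 ratio than miR-10b-5p and 72 had a lower one than miR-10a-5p, but those ratios rest on at least 100 reads and the miR-10 ratios on 17 and 20.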

How the data were processed

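Small RNA of exosomes was sequenced in 1 NC-Exo and 1 HC-Exo library (Illumina small RNA kit). The submitters' processing notes name Bowtie2 and the mouse builds mm9 and GRCm38. Read trimming, the miRNA reference and the handling of reads shared between names are not given in the sources used here. As deposited, the count table has 635 mature miRNAs with unnormalized counts, and these were used for every value. The authors also deposited a normalized signal, which is 12.1 per read in NC-Exo and 9.23 in HC-Exo for 634 of 635 rows (within 1%) and served as an alternative only. Their own comparison table (scaled counts, TPM, fold changes, p-values, q-values), with 4 columns of per-sample values, was not used.

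Counts were divided by the library total (102608 and 133155 reads). Rows with at least 10 reads over both libraries were tested by exact binomial tests with Benjamini-Hochberg adjustment (Python 3.11.15, scipy 1.17.1). A library at 3 reads or fewer was set at 3 for calls. Within-pair differences used Fisher's exact test and conditional odds ratio intervals. Named miRNAs are the rows of the rule, miR-99/100, the 3 next above and below each tested member in mean RPM, the 3 nearest in log2 ratio with at least 100 reads, and marker lists. Members and lists were chosen with earlier results of these data known. Alternatives were scalings in edgeR 4.0.16 and DESeq2 1.42.0 (R 4.3.3), read filters, pseudocounts, and edgeR exact tests with an assumed spread. Of the 635 names, 312 matched a rat RefSeq mature entry.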

Additional observations from a re-analysis of the deposited data

How the results depend on the processing

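No paired analysis was possible because each condition has a single library, which also leaves no replicate to drop. Of 12 alternatives for each miR-10 row, 4 alter only the p and 8 alter the value. Under these 8 the log2 ratio of miR-10b-5p ran from -0.79 to -0.57, and neither row was called under the 9 that give a p. That of miR-10a-5p kept its direction under 7 of 8, with 0.02 under upper-quartile scaling, and turned to -0.054 with a pseudocount of 5 reads, which adds the same reads to a smaller and a larger library. The 5 scalings moved every log2 ratio by -0.03 to -0.12, and the authors' normalized values moved those of the miR-10 rows by -0.01. Filters of at least 10 reads in each library or 50 over both left out both miR-10 rows, so they gave no value for them. The number of miRNAs called was 16, and it became 8 and 7 under these filters, where fewer were tested. It was 76 with no limit on the log2 ratio and 53 with no limit on the p. edgeR's exact test with a spread (coefficient of variation) set at 0.1, 0.2 or 0.4 called 0, and 55, 20 and 1 miRNAs had an unadjusted p under 0.05. The remaining 6 alternatives gave 12 to 16 calls. Without the 10 most abundant miRNAs in the totals, miR-10a-5p was at 160 and 164 RPM and miR-10b-5p at 251 and 148 RPM in NC-Exo and HC-Exo. Chosen after seeing the data, the sum of the 5 Hox-embedded rows without miR-615-3p had a log2 ratio of 0.02, against -0.19 with it and -0.38 without miR-196a-5p, so its direction rests on 3 reads. The depth, with at most 11 reads per row and library, limits every statement on these miRNAs.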
